A study of Mus musculus with 12 samples.

Results

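Transcripts of 38 Wnt pathway genes were described in kidneys of *Bdkrb2* null and wild-type (WT) mouse embryos. The 38 genes are a list of Wnt ligands, receptors, secreted inhibitors, intracellular signalling genes and pathway targets, taken by name and matched to array probes through each probe's accession. Of the 38, 36 had a matched probe and 34 were tested, among 12647 tested genes on the arrays. *Lrp6*, a co-receptor gene, and *Ccnd1*, a cyclin gene often used as a Wnt target, had no matched probe and were not analysed here. *Axin2* and *Wnt2b* had a matched probe that was too dim to test.

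The tested embryos were labelled BdkrB2 null and the embryos they were set against BdkrB2 WT, both of a C57BL/6 genetic background and both harvested at embryonic day 14.5. *Bdkrb2* encodes the bradykinin B2 receptor. Both genotypes were progeny of heterozygous parents, and their mothers ate high-salt food with 5% sodium, so the arrays hold no group on ordinary salt. RNA of the 2 genotypes was hybridised together on 12 arrays of 2 colours, which made 3 null/WT replicates (null RNA in Cy5) and 3 WT/null replicates (WT RNA in Cy5), each on 2 arrays. The labels do not give the design of the null allele, the sex of the embryos, or whether a sample held 1 embryo or several. Nor is it stated if a replicate number marks the same RNA in both orientations. The 6 replicates may thus be technical repeats of 3 pairs, and deviations of same-numbered replicates correlated at 0.413 to 0.587. SEs and p-values over 6 replicates may therefore be too small, and a count such as 6 of 6 may not count independent samples.

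Wnt proteins are secreted signals that bind Frizzled receptors together with the co-receptors LRP5 and LRP6. In the canonical branch this stops a complex that contains AXIN1 and APC from marking beta-catenin for destruction, and beta-catenin then acts with transcription factors of the TCF/LEF family at target genes. In the developing kidney the ureteric bud secretes WNT9B, which the surrounding nephron progenitors need both to renew and to form nephrons, and WNT7B from the ureteric stalk acts on the neighbouring stroma in forming the medulla.

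Promoter sequence is shown for 2 established direct targets (*Sp5* and *Axin2*), for *Dkk1*, an inhibitor gene that is itself a reported Wnt target, and for *Fzd7* and *Sfrp2*, the 2 genes that were higher in null kidneys in every replicate. Each sequence is the 250 bases before the gene's start in RefSeq, on assembly GRCm38.p6, read 5′ to 3′ in the direction of the gene. Capitals mark CTTTGA or its reverse complement TCAAAG, a form of the core letters of the TCF/LEF motif, searched on both strands. The form CTTTGT, or ACAAAG in reverse complement, was neither searched nor marked.
Sp5, chr2:70474673-70474922, plus strand: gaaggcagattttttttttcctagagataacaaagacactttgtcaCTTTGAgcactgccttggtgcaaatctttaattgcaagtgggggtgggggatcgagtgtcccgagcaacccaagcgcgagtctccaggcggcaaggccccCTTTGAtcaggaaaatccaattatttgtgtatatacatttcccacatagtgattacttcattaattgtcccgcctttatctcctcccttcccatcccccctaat
Dkk1, chr19:30549497-30549746, minus strand: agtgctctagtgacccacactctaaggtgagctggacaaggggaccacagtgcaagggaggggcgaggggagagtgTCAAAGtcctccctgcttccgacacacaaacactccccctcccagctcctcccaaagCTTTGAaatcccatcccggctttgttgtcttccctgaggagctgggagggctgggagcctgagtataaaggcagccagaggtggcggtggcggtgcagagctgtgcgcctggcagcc
Axin2, chr11:108920099-108920348, plus strand: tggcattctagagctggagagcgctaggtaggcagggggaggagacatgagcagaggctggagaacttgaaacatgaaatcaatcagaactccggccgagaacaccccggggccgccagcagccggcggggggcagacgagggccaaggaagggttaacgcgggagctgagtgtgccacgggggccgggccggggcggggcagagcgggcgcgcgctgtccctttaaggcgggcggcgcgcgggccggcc
Fzd7, chr1:59481897-59482146, plus strand: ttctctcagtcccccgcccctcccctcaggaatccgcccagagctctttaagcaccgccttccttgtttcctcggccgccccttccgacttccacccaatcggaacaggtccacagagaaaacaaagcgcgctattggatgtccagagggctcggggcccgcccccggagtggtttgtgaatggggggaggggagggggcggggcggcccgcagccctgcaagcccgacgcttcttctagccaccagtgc
Sfrp2, chr3:83766071-83766320, plus strand: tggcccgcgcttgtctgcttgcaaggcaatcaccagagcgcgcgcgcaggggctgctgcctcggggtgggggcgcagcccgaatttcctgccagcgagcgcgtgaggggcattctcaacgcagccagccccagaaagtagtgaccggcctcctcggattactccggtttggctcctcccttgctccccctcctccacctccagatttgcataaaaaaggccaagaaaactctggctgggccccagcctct
*Sp5* holds the letters CTTTGA at positions -204 and -104 from its start, and *Dkk1* holds them at -174 (as TCAAAG) and -117. The windows of *Axin2*, *Fzd7* and *Sfrp2* hold neither CTTTGA nor TCAAAG. The unsearched form, CTTTGT or ACAAAG, stands unmarked in the windows of *Sp5*, *Dkk1* and *Fzd7*, so these marks and the shares below cover CTTTGA alone. Of the 38 genes, 23 were in the RefSeq promoter table, and 6 of them (26.1%) had a window with the letters, against 15.8% of all 27025 genes in that table. A gene with several starts, such as *Wnt5b* or *Lef1*, had several windows, and any window with the letters counted. A match of 6 letters is a description of the sequence and does not show that a factor binds there.

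No Wnt pathway transcript passed the test between null and WT kidneys. At a limma adjusted p under 0.05, 0 of 34 tested genes were called, against a background of 0.0237% of all tested genes (3 of 12647). The smallest adjusted p among the 34 was 0.564, that of *Fzd7*. At an unadjusted p under 0.05, 4 of the 34 (11.8%) were higher in null kidneys, against 5.19% of all tested genes, and 0 were lower, against 2.59%. These 4 were the receptor genes *Fzd7* and *Lrp5* and the inhibitor genes *Sfrp2* and *Dkk2*. From the scanner's processed signals, and likewise in the authors' value table, the 4 genes were *Fzd7*, *Lrp5* and *Sfrp2*, higher in null, and *Wnt6*, lower in null. *Fzd7* and *Sfrp2* were higher in null in 6 of 6 replicates, which is 5.88% of the 34 genes against 1.67% of all tested genes. No gene of the 34 was lower in 6 of 6 by its brightest probe, against 1.38%. The median log2 null over WT of the 34 genes was 0.01, with 21 above and 13 below 0. That of all 12647 tested genes was -0.0031, with 6078 above and 6569 below 0.

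Values below are log2 ratios of null over WT, turned to that direction on all arrays, with the standard error (SE) of the fit over 6 replicates. A level is the log2 brightness of 1 genotype's channel in 1 replicate, and levels of different probes are not set against each other. Each gene is given by its brightest tested probe.

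**Figure D1:**
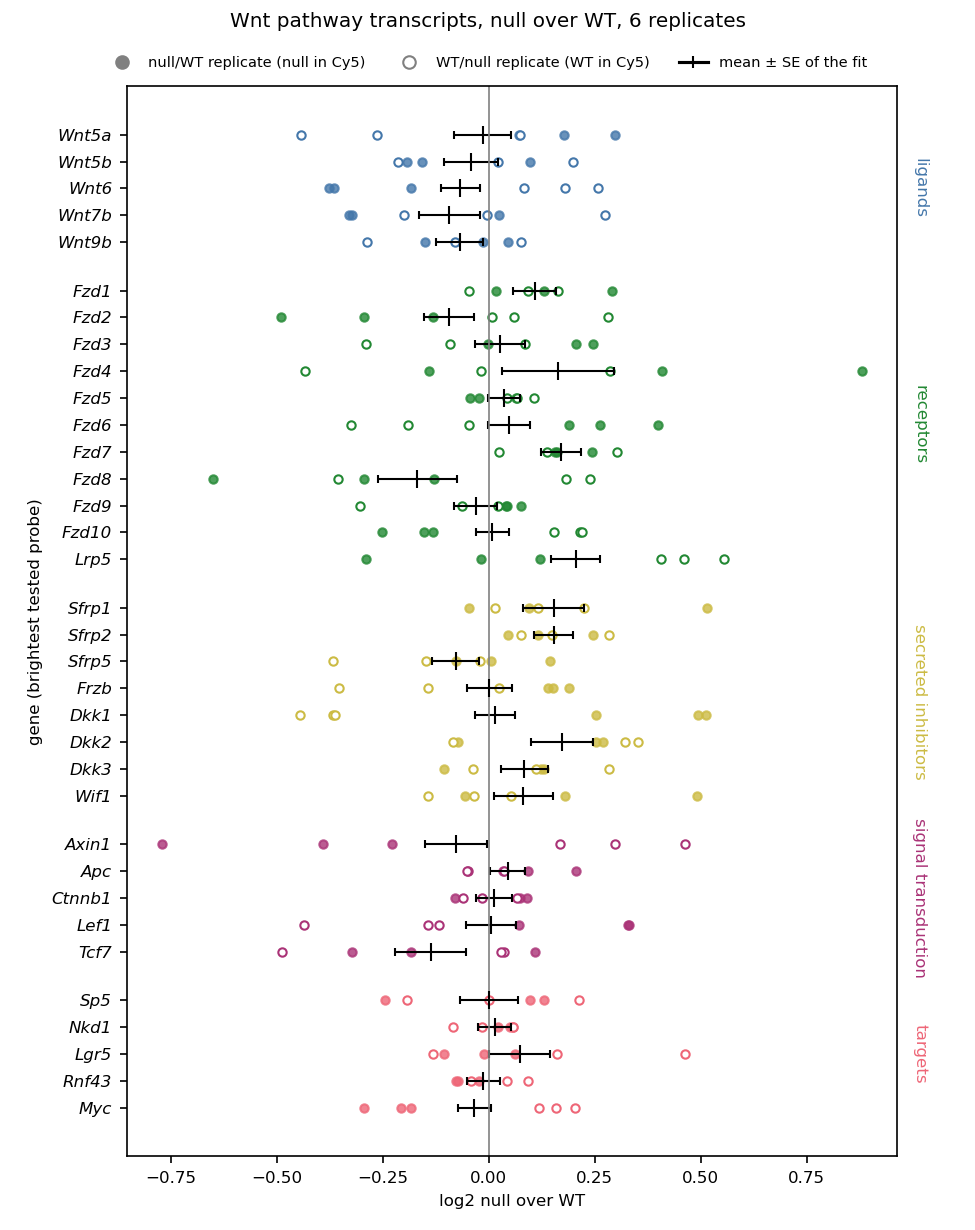
Log2 null over WT (x axis) of the 34 tested Wnt pathway genes (y axis, grouped by role) in each of 6 replicates. Filled points are null/WT replicates, open points WT/null replicates, and black bars the fitted mean ± SE. The points of *Fzd7* and *Sfrp2* all lie above 0, and those of *Dkk1* and *Axin1* separate by dye orientation.

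The ligand genes stood slightly below 0 in null against WT kidneys, but not on every slide. All 5 tested ligands had a fitted value below 0, compared with 6569 of all 12647 tested genes. The ligands had a median of -0.07 and a range of -0.09 to -0.01, and none passed the test. The slides disagreed in sign. The ligand median was -0.10 on slide 1, 0.15 on slide 2 and -0.20 on slide 3, where each slide held both orientations of 1 replicate number. On slides 1 and 3, 0 of 5 ligands were above 0, and on slide 2, 4 of 5 were. Without slide 3 the ligand median was 0.006.

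*Wnt9b*, the ureteric bud signal to nephron progenitors, had null levels of 10.06 to 10.22 (median 10.18), against WT levels of 10.10 to 10.36 (median 10.23). The 2 ranges overlapped. Its ratios were -0.01, 0.04 and -0.15 in null/WT replicates 1, 2 and 3, and -0.08, 0.07 and -0.29 in WT/null replicates 1, 2 and 3. The lowest values of both orientations were those of replicate 3. Over the 6 replicates the fit gave -0.07 ± 0.06 (SE, 95% interval -0.20 to 0.06, limma adjusted p = 0.735), and it was -0.13 without slide 2 and 0.006 without slide 3.

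*Wnt7b*, the stalk ligand, had null levels of 7.73 to 8.11 (median 7.87), against WT levels of 7.60 to 8.19 (median 8.09). Its ratios were -0.32, 0.02 and -0.33 in the null/WT replicates, and -0.005, 0.27 and -0.20 in the WT/null replicates. Both replicates numbered 2 were above 0 and the others were below it. *Wnt7b* was fitted at -0.09 ± 0.07 (95% interval -0.26 to 0.07, limma adjusted p = 0.734). Without slide 2 it was -0.21, and without slide 3 it was -0.008.

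*Wnt6* encodes another ligand, one reported in the ureteric bud. Levels of *Wnt6* in null were 7.01 to 7.68 (median 7.32), against WT levels of 7.04 to 7.77 (median 7.39). Its ratios were -0.36, -0.18 and -0.38 in the null/WT replicates, and 0.08, 0.18 and 0.26 in the WT/null replicates. The sign thus followed the dye in all 6 replicates, and the dye term passed its own test (0.48 lower with null in Cy5, limma adjusted p = 0.0149 for the dye). The fit put *Wnt6* at -0.07 ± 0.05 (95% interval -0.17 to 0.04, limma adjusted p = 0.729). Its value was -0.20 from the scanner's processed signals (limma unadjusted p = 0.0231, adjusted p = 0.544), -0.10 without the widest-spread array (the first of WT/null replicate 3, unadjusted p = 0.0371) and -0.03 without slide 1.

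*Wnt5a* and *Wnt5b* encode ligands best known for the non-canonical branch, which steers cell movement and polarity without beta-catenin. *Wnt5a* stood at -0.01 ± 0.07, with 4 of 6 replicates above 0. *Wnt5b* stood at -0.04 ± 0.06 by its brightest probe and at -0.11 ± 0.09 by its other probe, with 3 and 2 of 6 replicates above 0. The probe of *Wnt2b*, a ligand known from kidney stroma, cleared the scanner's background threshold in 1 null channel and 0 WT channels of 12 each, so no fold is given.

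**Figure D2:**
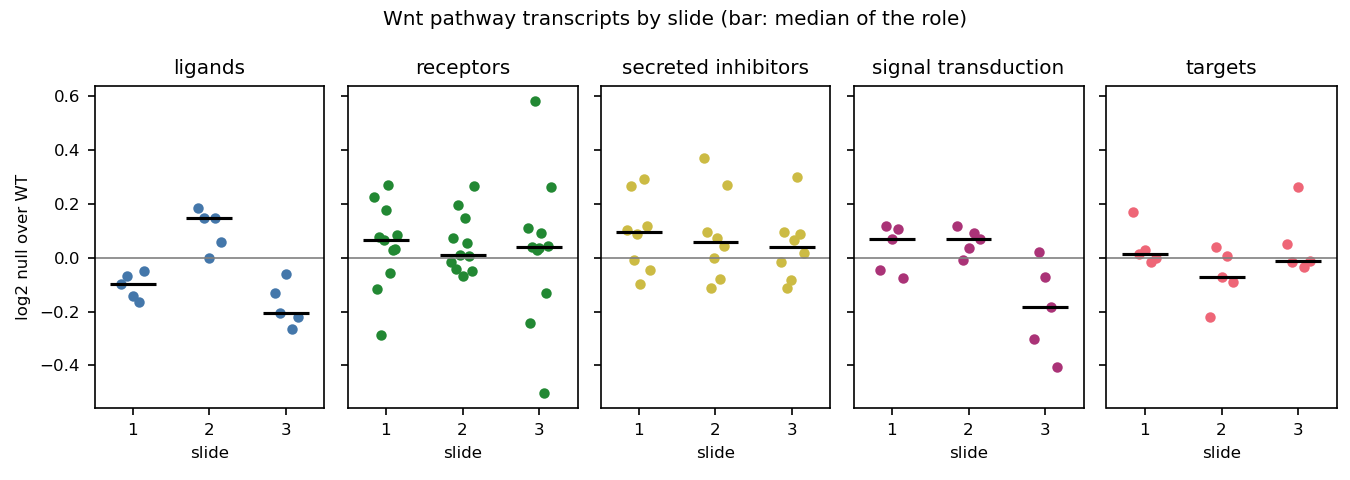
Log2 null over WT (y axis) by slide (x axis), 1 panel per role. Each point is 1 gene, the mean of the null/WT and WT/null replicates on that slide, and each bar is the role's median. The ligand medians are -0.10, 0.15 and -0.20 on slides 1, 2 and 3, and those of the secreted inhibitors 0.10, 0.06 and 0.04.

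Among the 11 tested receptor genes, 8 had a fitted value above 0 in null against WT kidneys, compared with 6078 of all 12647 tested genes. The 11 receptor genes had a median of 0.04 and a range of -0.17 to 0.20. None passed the test over all probes. The receptor median was 0.06, 0.01 and 0.04 on slides 1, 2 and 3. It was -9.9e-05 without slide 1 and 9.0e-04 from the scanner software's processed intensities, so no sign is given for the group.

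*Fzd7* encodes a Frizzled receptor that acts in both branches of the pathway and is common in progenitor cells. Its null levels were 8.92 to 10.04 (median 9.89), against WT levels of 8.90 to 9.89 (median 9.70). The ranges overlapped, and both channels were dimmest in WT/null replicate 3. Within each replicate, null exceeded WT: the ratio was 0.24, 0.16 and 0.16 in the null/WT replicates and 0.30, 0.14 and 0.02 in the WT/null replicates. The fitted ratio was 0.17 ± 0.05 (1.13-fold, 95% interval 0.06 to 0.28, limma unadjusted p = 0.00631, adjusted p = 0.564). The slide means were 0.27, 0.15 and 0.09. A dimmer probe of the same gene stood at 0.15 ± 0.09 with 3 of 6 replicates above 0, and 1 of those replicates, WT/null replicate 3, reached 0.72.

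*Lrp5* encodes the co-receptor that works beside Frizzled in the canonical branch. Its null levels were 10.75 to 11.22 (median 11.04), against WT levels of 10.59 to 11.09 (median 10.70). The ranges overlapped, and the 2 highest null levels and the 2 lowest WT levels were those of WT/null replicates. The ratio was -0.29, -0.02 and 0.12 in the null/WT replicates and 0.46, 0.55 and 0.40 in the WT/null replicates. Only the WT/null replicates were all above 0, and the dye term passed its test (-0.54, limma adjusted p = 0.0225 for the dye). *Lrp5* was fitted at 0.20 ± 0.06 (1.15-fold, 95% interval 0.07 to 0.34, limma unadjusted p = 0.00721, adjusted p = 0.581).

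*Fzd1*, another Frizzled gene, had null levels of 12.34 to 12.50 (median 12.47), against WT levels of 12.05 to 12.47 (median 12.38). Its ratio was 0.29, 0.02 and 0.13 in the null/WT replicates and 0.16, -0.05 and 0.09 in the WT/null replicates. Null was above WT in 5 of 6 replicates, with both values of replicate 2 nearest 0. *Fzd1* was fitted at 0.11 ± 0.05 (95% interval -0.01 to 0.22, limma adjusted p = 0.71), with 0.05 without slide 1 and 0.17 without slide 2.

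The other Frizzled genes gave wider or smaller values. *Fzd4*, whose product is also the receptor for norrin in blood vessels, stood at 0.16 ± 0.13, and its slide means were -0.29, 0.20 and 0.58. *Fzd8* stood at -0.17 ± 0.09, with slide means of -0.06, 0.05 and -0.50. In both genes slide 3 held the largest departure from 0. *Fzd2* stood at -0.09 ± 0.06 by its brightest probe and at 0.03 ± 0.06 by the other. *Fzd3* stood at 0.03 ± 0.06 by its brightest probe and at -0.09 ± 0.06 by the other, which was below 0 in 6 of 6 replicates. Neither gene has a single sign. *Fzd10* likewise gave 0.01 ± 0.04 and -0.08 ± 0.08 by its 2 probes. *Fzd6*, a Frizzled gene of the polarity branch, stood at 0.05 ± 0.05 with a dye term past its threshold. *Fzd9* stood at -0.03 ± 0.05, and *Fzd5* at 0.04 ± 0.04 on a probe that cleared background in 9 null channels and 9 WT channels of 12 each.

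**Figure D3:**
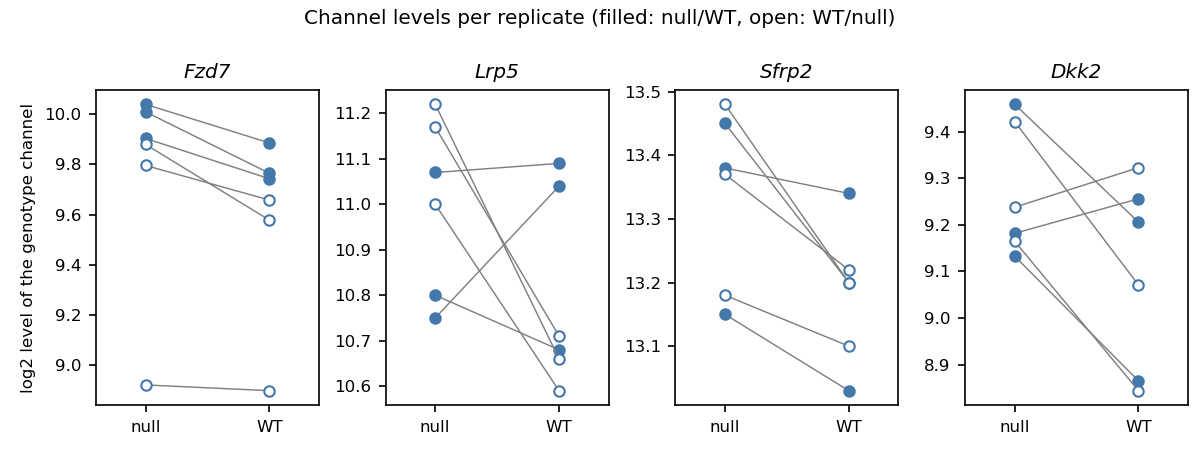
Log2 level of the genotype channel (y axis, a separate scale per panel) in null and WT (x axis) for the 4 genes with an unadjusted p under 0.05. Each line joins the 2 channels of 1 replicate. All 6 lines of *Fzd7* and *Sfrp2* are higher at null than at WT, while 4 of 6 are for *Lrp5* and *Dkk2*.

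Among the 8 secreted inhibitor genes, 7 had a fitted value above 0 in null against WT kidneys, compared with 6078 of all 12647 tested genes. The 8 inhibitor genes had a median of 0.08. The range was -0.08 to 0.17, and no gene passed the test. The slide medians were 0.10, 0.06 and 0.04, with 5 of 8 genes above 0 on each slide. By orientation the values split: the replicate medians were 0.14, 0.13 and 0.16 in the null/WT replicates, and 0.07, -0.06 and -0.06 in the WT/null replicates. The role's median was 0.04 without null/WT replicate 2 and 0.02 without slide 2. Whether this role differs from the others was not tested.

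*Sfrp2* encodes a secreted Frizzled-related protein, which binds Wnt ligands outside the cell. Its null levels were 13.15 to 13.48 (median 13.38), against WT levels of 13.03 to 13.34 (median 13.20). The ranges overlapped, although null exceeded WT within each replicate. The ratio was 0.25, 0.05 and 0.12 in the null/WT replicates and 0.28, 0.15 and 0.07 in the WT/null replicates. Over all replicates *Sfrp2* stood at 0.15 ± 0.05 (1.11-fold, 95% interval 0.05 to 0.26, limma unadjusted p = 0.011, adjusted p = 0.605). The slide means were 0.27, 0.10 and 0.10, so that slide 1 held the highest value, as it did for *Fzd7*. Without slide 1 *Sfrp2* was at 0.10 (limma unadjusted p = 0.188).

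*Dkk2* encodes a Dickkopf protein, which binds the LRP co-receptors. Its null levels were 9.13 to 9.46 (median 9.21), against WT levels of 8.84 to 9.32 (median 9.14), and the ranges overlapped. The ratio was 0.27, -0.07 and 0.25 in the null/WT replicates and 0.32, -0.09 and 0.35 in the WT/null replicates. Both values of replicate 2 were below 0, and the other 4 were above it. The fitted ratio was 0.17 ± 0.07 (1.13-fold, 95% interval 0.01 to 0.34, limma unadjusted p = 0.0443, adjusted p = 0.707). Without slide 1 or slide 3 it was 0.11, and without slide 2 it was 0.30. With the replicate number as a block, the unadjusted p of *Dkk2* was 0.088 by limma, while those of *Fzd7*, *Lrp5* and *Sfrp2* were 0.0228, 0.0123 and 0.037.

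*Sfrp1*, a relative of *Sfrp2*, had null levels of 10.14 to 10.54 (median 10.38), against WT levels of 9.77 to 10.45 (median 10.38). Its ratio was 0.09, 0.52 and -0.05 in the null/WT replicates and 0.12, 0.22 and 0.01 in the WT/null replicates. Replicate 2 held the highest value of each orientation. *Sfrp1* was fitted at 0.15 ± 0.07 (95% interval -0.01 to 0.32, limma adjusted p = 0.71). Leaving out null/WT replicate 2 gave 0.07, leaving out slide 2 gave 0.04 and leaving out slide 3 gave 0.24.

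*Dkk1*, a Dickkopf inhibitor of the LRP co-receptors whose promoter is shown above, had a fitted ratio of 0.01 ± 0.05 (95% interval -0.10 to 0.12). Its replicates fell into 2 sets by dye: the mean ratio was 0.42 in the null/WT replicates and -0.39 in the WT/null replicates. The dye term was 0.81 (limma adjusted p = 0.00414 for the dye). A dimmer *Dkk1* probe stood at 0.003 ± 0.04. *Dkk3* encodes a divergent Dickkopf protein and stood at 0.08 ± 0.06. *Wif1*, which encodes a secreted Wnt-binding factor, also stood at 0.08 ± 0.07. *Frzb*, a further Frizzled-related gene, stood at 0.001 ± 0.05. *Sfrp5* stood at -0.08 ± 0.06 on a probe that cleared background in 6 null channels and 6 WT channels of 12 each.

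The 5 intracellular signalling genes had a median of 0.01 in null against WT kidneys, with 3 above and 2 below 0. None passed the test or had an unadjusted p under 0.05. The slide medians were 0.07, 0.07 and -0.18, so slide 3 differed in sign from the other slides.

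*Ctnnb1*, the gene of beta-catenin, was spotted 10 times on each array and stood at 0.01 ± 0.04 (95% interval -0.09 to 0.11). In null the levels of *Ctnnb1* were 13.60 to 13.73 (median 13.65), against WT levels of 13.54 to 13.69 (median 13.67). Levels of both genotypes thus lay between 13.54 and 13.73. A second probe stood at 0.04 ± 0.04.

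*Tcf7*, the gene of the transcription factor TCF1, had null levels of 8.55 to 9.05 (median 8.62), against WT levels of 8.44 to 9.13 (median 9.0). Its ratio was -0.18, 0.11 and -0.32 in the null/WT replicates and 0.04, 0.03 and -0.49 in the WT/null replicates. Replicate 3 held the lowest value of both orientations. The fitted ratio was -0.14 ± 0.08 (95% interval -0.33 to 0.06, limma adjusted p = 0.724), and that of its other probe was -0.08 ± 0.07. Without slide 3 the value of *Tcf7* was -0.003, without WT/null replicate 3 it was -0.05, and without slide 2 it was -0.24.

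*Axin1*, a scaffold gene of the destruction complex, had null levels of 7.62 to 8.67 (median 8.12), against WT levels of 7.51 to 8.66 (median 8.25). Its ratio was -0.39, -0.23 and -0.77 in the null/WT replicates and 0.30, 0.46 and 0.17 in the WT/null replicates. The sign followed the dye in all 6. *Axin1* was fitted at -0.08 ± 0.07 (95% interval -0.25 to 0.09, limma adjusted p = 0.755). Leaving out null/WT replicate 3 gave -2.8e-04, leaving out slide 3 gave 0.03 and leaving out slide 2 gave -0.17. The value was -0.16 from the scanner's processed signals.

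*Apc*, the other scaffold gene of that complex, had mean levels of 10.21 ± 0.04 in null and 10.17 ± 0.10 in WT channels (SD, n = 6 replicates each). Its ratio was 0.21, 0.03 and 0.09 in the null/WT replicates and 0.03, -0.05 and -0.05 in the WT/null replicates. Its fit was 0.04 ± 0.04 (95% interval -0.05 to 0.14, limma adjusted p = 0.754). Its 2 other tested probes, 1 of them spotted 10 times, stood at 0.10 ± 0.05 and 0.08 ± 0.04. *Lef1*, a partner of beta-catenin at DNA, stood at 0.01 ± 0.06, with means of 0.24 in the null/WT and -0.23 in the WT/null replicates.

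Target genes, whose transcripts are commonly read as the output of canonical signalling, lay near 0 in null against WT kidneys. The 5 tested targets had a median of 0.0007 and a range of -0.03 to 0.07, and none passed the test or had an unadjusted p under 0.05. *Axin2*, the target most often used as a reporter of the pathway, could not be compared. Its probe cleared background in 0 null channels and 0 WT channels of 12 each.

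*Nkd1* encodes a feedback inhibitor induced by the pathway. Null levels of *Nkd1* were 11.21 to 11.55 (median 11.43), against WT levels of 11.29 to 11.53 (median 11.41). Its ratio was 0.05, 0.02 and 0.06 in the null/WT replicates and -0.02, 0.06 and -0.08 in the WT/null replicates, so no replicate was farther than 0.1 from 0. *Nkd1* was fitted at 0.01 ± 0.04 (95% interval -0.08 to 0.10, limma adjusted p = 0.911).

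*Lgr5*, an R-spondin receptor gene and stem cell marker, had null levels of 8.13 to 8.43 (median 8.18), against WT levels of 7.96 to 8.26 (median 8.16). Its ratio was -0.11, -0.01 and 0.06 in the null/WT replicates and 0.16, -0.13 and 0.46 in the WT/null replicates. WT/null replicate 3 was the highest. *Lgr5* was fitted at 0.07 ± 0.07 (95% interval -0.09 to 0.24, limma adjusted p = 0.761), and it was -0.002 without WT/null replicate 3 and -0.02 without slide 3.

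*Myc*, a growth-promoting transcription factor gene, had null levels of 11.96 to 12.24 (median 12.10), against WT levels of 11.93 to 12.29 (median 12.13). Its ratio was -0.21, -0.30 and -0.18 in the null/WT replicates and 0.20, 0.12 and 0.16 in the WT/null replicates. The sign followed the dye on a probe spotted 10 times. The fitted ratio was -0.03 ± 0.04 (95% interval -0.12 to 0.05, limma adjusted p = 0.78), and its 2 other probes stood at -0.05 ± 0.04 and -0.04 ± 0.05.

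*Sp5*, the target whose promoter window holds CTTTGA at 2 places, stood at 0.001 ± 0.07 (95% interval -0.16 to 0.16). Null levels of *Sp5* were 9.49 to 9.94 (median 9.60), against WT levels of 9.48 to 9.85 (median 9.67). The slide means of 0.17, -0.22 and 0.05 had no common sign. *Rnf43*, which encodes a membrane enzyme that removes Frizzled receptors, stood at -0.01 ± 0.04 (95% interval -0.10 to 0.08). Null levels of *Rnf43* were 9.30 to 9.39 and its WT levels 9.30 to 9.41.

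For several of these genes the ratio depended on the dye orientation. The dye term, which is the mean of the null/WT replicates minus that of the WT/null replicates, had an adjusted p under 0.05 by limma for 8 of 34 genes (23.5%), against 15.7% of all tested genes. These were *Wnt6*, *Fzd6*, *Fzd10*, *Lrp5*, *Dkk1*, *Axin1*, *Lef1* and *Myc*. *Lrp5* was the only one of the 4 genes with an unadjusted p under 0.05 among them. The fit removes a dye effect that is equal on all arrays, and both orientations had 3 replicates.

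**Figure D4:**
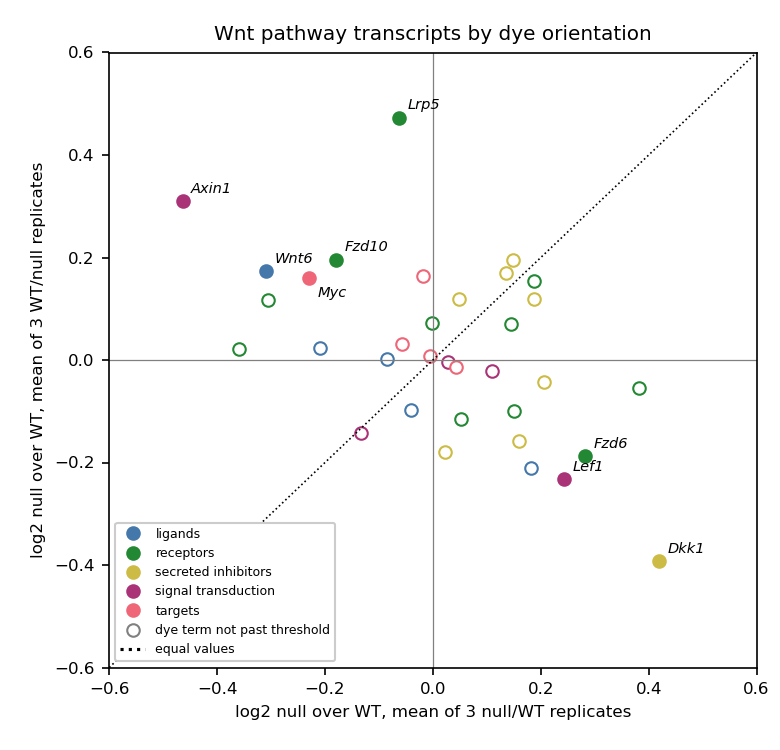
Mean log2 null over WT of the 3 null/WT replicates (x axis) and of the 3 WT/null replicates (y axis) for 34 genes. Filled, named points had a dye term past the threshold, and the dotted line marks equal values. *Dkk1* lies at 0.42 and -0.39, and *Lrp5* has a WT/null mean of 0.47 against a null/WT mean of -0.06.

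A further 67 Wnt pathway genes (other ligands, R-spondins, polarity genes, kinases, cofactors and inhibitors) were listed, of which 52 were tested. None of the 52 passed the test over all probes, and the smallest limma adjusted p was 0.256. At an unadjusted p under 0.05, 6 (11.5%) were higher in null kidneys, and 0 were lower, against the backgrounds of 5.19% and 2.59% given above. Their median was -0.003. *Wnt2*, a ligand, stood at 0.24 ± 0.04 with 6 of 6 replicates above 0 and slide means of 0.33, 0.18 and 0.19 (limma adjusted p = 0.256). *Sfrp4*, a Frizzled-related inhibitor gene, stood at 0.31 ± 0.07 with slide means of 0.41, 0.11 and 0.41. *Celsr1* and *Celsr2*, cadherin genes of the polarity branch, stood at 0.17 ± 0.05 and 0.19 ± 0.06, with 5 and 4 of 6 replicates above 0. Other tested probes of *Celsr2* stood at 0.21 ± 0.05 and -0.04 ± 0.07, so its probes differ in sign. *Sostdc1*, a secreted inhibitor gene active in the kidney's epithelium, stood at 0.33 ± 0.13, but its slide means were 0.12, 0.06 and 0.81. *Dact2*, an intracellular modulator gene, stood at 0.15 ± 0.06.

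Marker genes of kidney cell types and of neighbouring tissues were read on the same arrays. Of the kidney lists, 8 of 8 nephron progenitor markers and 9 of 10 ureteric epithelium markers were bright enough to test. So were 7 of 8 skeletal muscle, 5 of 6 cartilage, 6 of 6 leukocyte, 4 of 6 liver, 3 of 6 adrenal and 3 of 6 neuron markers. Being bright enough to test thus does not by itself mark kidney tissue. Of 11 stroma markers, 10 had a fitted value above 0, compared with 6078 of all 12647 tested genes. With null higher, 8 of the 11 had an unadjusted limma p under 0.05, against 5.19% of all tested genes, and 0 passed after adjustment. The stroma markers had a median of 0.16, with slide medians of 0.21, 0.07 and 0.22. Their summed level was 130752 to 165678 in null and 120425 to 150467 in WT channels. *Foxd1*, the defining gene of cortical stroma, stood at 0.02 ± 0.04. The stroma median was of the size of the ratios of *Fzd7*, *Lrp5*, *Sfrp2* and *Dkk2*. A median above 0 was not particular to stroma: it was 0.11 for endothelium, 0.11 for leukocyte, 0.12 for liver and 0.05 for podocyte markers. Cartilage, adrenal and neuron markers had medians of -0.02, -0.02 and -0.04. The part of stroma or of any other cell type in the ratios of the 4 genes was not tested. The nephron progenitor markers had a median of -0.08, with slide medians of -0.001, -0.07 and -0.21, and those of the ureteric epithelium 0.01, with 0.03, 0.07 and -0.02. In such bulk RNA, fewer cells of a type and less RNA per cell cannot be told apart.

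Slide 3 stood apart in tissue markers. The skeletal muscle markers had slide medians of 0.14, 0.41 and 2.16, with a summed level of 1124 to 4682 in null and 1076 to 1307 in WT channels. Of these tested markers, 7 of 7 were above 0, compared with 6078 of all 12647 tested genes. The proximal tubule markers had slide medians of -0.01, 0.08 and 0.91. Transcripts of the sex chromosomes split the genotypes on slides 2 and 3. The Y-linked *Ddx3y*, *Kdm5d* and *Eif2s3y* each cleared background in 0 null and 4 WT channels of 4 each on slide 2 and slide 3. On slide 1 they cleared it in 0 null and 0 WT channels. *Xist*, which silences an X chromosome, cleared background in all 4 null channels of each slide, but in 4 WT channels on slide 1 and 0 on slides 2 and 3. No fold is given for them. On slides 2 and 3 they thus read as female in null and male in WT, so sex and genotype cannot be told apart there. On slide 1 they read as female in both genotypes. On slides 1, 2 and 3, *Fzd7* stood at 0.27, 0.15 and 0.09, and *Sfrp2* at 0.27, 0.10 and 0.10. *Dkk2* stood at 0.29, -0.08 and 0.30, and *Lrp5* at 0.08, 0.27 and 0.26. The part of embryo sex and of muscle RNA in these values was not tested. Nor was that of the proximal tubule and nephron progenitor marker differences on slide 3.

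On the arrays as a whole, 40.5% to 57.8% of probes cleared background in the null channel and 47.8% to 59.4% in the WT channel. The *Bdkrb2* probe cleared background in 0 null channels and 1 WT channel, so it could not check the genotypes. In WT/null replicate 3, the first array had an SD of log2 ratios of 0.381, against 0.164 to 0.256 on the other 11 arrays, and the duplicate correlation over probes was 0.711, against 0.824 to 0.923 in the other replicates. Without that array, the count of called Wnt pathway genes was still 0.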

How the data were processed

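Total RNA of both genotypes was measured on 12 Agilent arrays of 2 colours. The authors deposited, per the file headers, median spot and background intensity for each dye without further normalization, the scanner software's processed intensity values, and its log10 ratio of Cy5 over Cy3 (Agilent Feature Extraction 10.5.1.1, while the submitters' processing notes name version 6.1). The series value table that the authors deposited holds log10 ratios of null over WT. Deposited flags mark probes well above background and outlier spots, per the file headers.

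Median intensities, the only spot summaries in the files used here, were corrected with normexp (offset 50) and loess-normalized within each array. Control spots and 101 to 262 outlier spots per array were left out. Spots of a probe and the 2 arrays of a replicate were averaged. Levels were set across arrays by Aquantile. Of 41174 probes, 22979 were well above background in the null or WT channel on at least 6 of 12 arrays and were tested with limma 3.58.1 in R 4.3.3 (genotype and dye terms, Benjamini-Hochberg over all tested probes). The median SE was 0.0506, and the number of arrays limits the precision. Symbols came from RefSeq GRCm38.p6 through accessions, and the array header names build mm9. The fit was tested on simulated data with independent errors in each replicate, which cannot show how the p-values behave for correlated replicates.

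Each slide of 4 arrays held 1 replicate number in both orientations. Deviations of same-numbered replicates correlated at 0.587, 0.517 and 0.413, so the values of a replicate number went together. Tissue markers also followed the replicate number. In replicates 1, 2 and 3, *Myh3* (muscle) stood at 0.16, 0.39 and 3.05 as null/WT and at 0.12, 0.43 and 2.78 as WT/null. *Fbp1* (proximal tubule) stood at -0.09, 0.56 and 2.23 as null/WT and at -0.07, 0.58 and 2.26 as WT/null. The sex-linked transcripts cleared background by replicate number too, as given above. Whether the likeness of same-numbered replicates came through the slide or through shared RNA was not tested. A fit on 3 pair means was run beside the main one. Alternatives covered the intensity columns, offset, centring, filter, probe choice, and left-out replicates, slides and 1 array. No column lacked a sample (0).

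In full are given, per role, the 3 tested genes with the smallest unadjusted p and any other under 0.05, and of the further pathway genes up to 5 per direction. *Dact2*, *Ctnnb1*, *Sp5*, *Dkk1* and *Rnf43* were added after their values were seen. The genes and lists were chosen with earlier results of these data known.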

Additional observations from a re-analysis of the deposited data

Results flagged for a closer look

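In the 64 groups of 6 values examined, 4 held a single value far from the other 5 (a gap past Dixon's 95% critical value, which chance gives in about 1 group in 20), and all 4 lay in WT/null replicate 3. The null level of *Fzd7* was 8.92 and its WT level 8.90 there, both lower than in the other replicates, and the ratio of that replicate, 0.02, was the lowest of the 6. The ratio of *Fzd9* was -0.305 there, the lowest of its 6. The null level of *Lgr5* was 8.43 there, the highest of its 6. That replicate also held the array with the widest ratios.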

How the results depend on the processing

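Under 18 alternatives, 0 of the Wnt pathway genes and 0 of the further pathway genes passed by limma, and of the values that answer a comparison 147 kept their direction and side of the threshold or moved little, while 14 moved further. With the replicate number as a block, 4 probes were called in place of 9, and 3 of the 34 genes had an unadjusted p under 0.05 (*Fzd7*, *Lrp5* and *Sfrp2*). The probe count was 3 without slide 2, 62 without slide 3, 15 once the widest-spread array (the first of WT/null replicate 3) was left out, and 5 to 12 with 1 replicate left out. The number of genes with an unadjusted p under 0.05, 4 in the main analysis, was 2 without slide 1, 8 without slide 2 and 2 to 6 with 1 replicate left out (2 without WT/null replicate 1). It was 7 with median centring in place of loess, where the median of all tested genes itself stood at 0.16. The receptor median was 9.0e-04 with the scanner's processed signals, 8.9e-04 in the authors' value table, -9.9e-05 without slide 1, 0.0592 without slide 2, and 0.0188 to 0.0731 with 1 replicate left out. Among named genes that changed sign, *Myc* turned to 7.7e-04 with median centring (relative to all genes). *Wnt9b* turned to 0.00586, *Axin1* to 0.035 and *Lgr5* to -0.022 without slide 3. With 1 replicate left out, *Nkd1* ranged from -0.0041 to 0.0311 and *Lgr5* from -0.00196 to 0.146. Left-out samples mean fewer values; otherwise the cause was not tested. Dim probes (*Axin2*, *Wnt2b*, *Fzd5*, *Sfrp5*) limit what the signal can show.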
